A study of Oryctolagus cuniculus with 12 samples.

Results

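The genes described here are MYOC, OPTN, ANGPTL7, LOXL1, FOXC1, CAV1, CAV2, and TBK1, 8 genes that human genetics ties to glaucoma. They were taken from the table of genes by symbol, and all 8 were found among its 20566 genes. All 8 also had enough counts to be tested, together with 14835 genes in all. The rule for membership is the symbol alone, but the list was drawn up with earlier results of these data known.

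RNA was sequenced from conjunctiva of female Japanese white rabbits. The right eye received a trabeculectomy with mitomycin C, an operation that drains aqueous humor under the conjunctiva, where the fluid raises a filtering bleb. A piece of trabecular meshwork was cut out, a peripheral iridectomy was made, and the operation ended with a betamethasone injection into the conjunctiva and an antibiotic ointment. The age of the rabbits, 12 to 14 weeks, and these surgical details come from the study's methods, which take the trabeculectomy libraries from earlier work, so it is not certain that they hold for these animals. Bleb conjunctiva was collected at 3 hours (TL3h), 3 days (TL3d), or 14 days (TL14d), and conjunctiva of left eyes that were not operated on served as the control, with 3 libraries in each of the 4 groups. As the methods describe the operation, mitomycin C, the steroid, and the surgery came together in every operated eye and cannot be told apart. The time at which the control tissue was taken, and which control eye belonged to which operated animal, are not given in the sources used here.

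Glaucoma damages the optic nerve, and its main treatable risk is the pressure inside the eye, which the trabecular meshwork sets by the resistance it offers to outflow. Some of the 8 genes act in that drainage tissue: MYOC and ANGPTL7 code for secreted proteins that are abundant there and rise with glucocorticoids, LOXL1 crosslinks elastic fibers, CAV1 and CAV2 build caveolae, and FOXC1 is a transcription factor that shapes the front of the eye. OPTN and TBK1 are partners instead, a selective autophagy receptor and the kinase that phosphorylates it, and are linked to glaucoma at normal pressure. The conjunctiva is not the tissue in which any of them is usually studied.

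MYOC (gene ID 100008897) lay on chromosome 13 of OryCun2.0, from 21157279 to 21167175 on the plus strand, and OPTN (100353196) on chromosome 16, from 17761417 to 17819957 on the plus strand. TBK1 (100358771) lay on chromosome 4, from 43251472 to 43300704 on the plus strand. CAV1 (100008837; 28753340 to 28800840) and CAV2 (100126563; 28818254 to 28826159) were neighbors on the minus strand of chromosome 7, with 17413 bases between them. ANGPTL7 (100355672), LOXL1 (100351128), and FOXC1 (103352276) lay on sequence not placed on a chromosome, and FOXC1 was annotated there as 1 unbroken stretch of 1899 bases. ANGPTL7 was the only one of the 8 whose span overlapped another gene, MTOR on the opposite strand. The values are those of whole genes, with exons of all annotated transcripts together.

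FPKM, the authors' estimate per transcript length and depth, allows levels of different genes to be set side by side. In control conjunctiva CAV1 had the highest level of the 8, with a mean of 78.3 FPKM, above that of 95% of the genes tested. FOXC1 followed with 64.1 FPKM, and CAV2 (21.9), LOXL1 (16.1), OPTN (15.2), and TBK1 (9.79) lay in the middle. ANGPTL7 with 2.97 FPKM and MYOC with 2.21 FPKM came last, and only 28% of the genes tested lay below MYOC. Neighbors in this order overlapped between their control libraries, except that all OPTN libraries lay above all TBK1 libraries and all TBK1 libraries above all ANGPTL7 libraries. Both secreted proteins of the trabecular meshwork were thus the rarest of the 8 transcripts in conjunctiva, as far as FPKM ranks them, but each was detected in all 3 control libraries.

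Unless FPKM is named, all other levels are CPM, counts divided by a library total that was scaled by the TMM factors of edgeR. Libraries held 27111276 to 38591374 counts, so that a count of 0 allows up to 0.0712 to 0.124 CPM per library (3 counts, counting error only). TL14d replicate 1 stood apart, with a mean correlation of 0.883 with the other libraries of its group and 0.958 with the control libraries. The tissue was checked against epithelium markers, of which 5 of 8 were in the table. These summed to 3875 to 8178 CPM in the control group, to 4004 to 6548 CPM at 3 hours, to 6089 to 16160 CPM at 3 days, and to 8294 to 12470 CPM at 14 days, so they were present in all 12 libraries. Sums of markers of other cells differed as well. By the test described below, 0 of 7 fibroblast markers passed at any time. Of 5 smooth muscle and pericyte markers 1 was lower at 3 hours and 0 passed at 3 days. Of 8 endothelium markers 2 were higher at 3 hours and 0 passed at 3 days, and 4 of 6 myeloid markers were higher at each of these times. Of all genes 45.4% passed at 3 hours and 17.6% at 3 days. The 7 fibroblast markers summed to between 12200 and 76460 CPM in the control group, to between 105300 and 125800 CPM at 3 hours, to between 1336 and 64980 CPM at 3 days, and to between 11040 and 57230 CPM at 14 days. The 6 myeloid markers in the table summed to 54.5 to 294 CPM in control libraries, and to 663 to 1582 CPM and 873 to 1120 CPM at 3 hours and 3 days. The 5 smooth muscle and pericyte markers in the table summed to 259.5 to 382 CPM in control libraries, to 180.5 to 194 CPM at 3 hours, and to 418 to 952 CPM at 3 days. Sums of corneal markers ran from 174 to 1287 CPM over the 12 libraries, those of adipocyte markers from 17.6 to 142 CPM, and those of pigment cell markers from 9.10 to 171 CPM. Skeletal muscle markers summed to 191 CPM in control replicate 2 and to 272 CPM in TL3d replicate 3, and to at most 6.80 CPM elsewhere. The 8 vascular endothelium markers summed to 71.2 to 313 CPM in control libraries, to 655 to 1282 CPM at 3 hours, and to 322 to 580 CPM at 3 days, above every control library at both times. In tissue RNA, fewer cells of a type and less RNA per cell cannot be told apart. The study describes the libraries of a bleb group as separate eyes, but no label ties the control libraries to animals, so each p-value measures the spread between these libraries, part of which may be technical.

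Each time was compared with the same 3 control libraries by the quasi-likelihood test of edgeR, fitted over all genes, and q is its p-value after Benjamini-Hochberg adjustment over 14835 genes, with a threshold of 0.05. At 3 hours 2 of the 8 genes passed, 1 higher and 1 lower, where 45.4% of all genes passed (23.2% higher and 22.2% lower). At 3 days 1 of the 8 passed, and it was lower, where 17.6% of all genes passed (10.6% higher and 7% lower). At 14 days none of the 8 passed, and the share of all genes was 0%. That count of 0 out of 14835 stands beside 1538 genes with an unadjusted p under 0.05, none of them among the 8, and beside 370 genes that passed with DESeq2 and 0 with limma. Without TL14d replicate 1, 716 genes passed, none of them among the 8. In a joint test of the 3 times against the control group, 4 of the 8 passed, MYOC (q = 0.0108), OPTN (q = 0.0276), FOXC1 (q = 0.0485), and CAV1 (q = 0.00554), where 52.4% of all genes passed. The joint call of OPTN was lost without TL3h replicate 2 (q = 0.0805), TL3h replicate 3 (0.0658), TL3d replicate 1 (0.0545), or TL3d replicate 2 (0.0577). The share of the 8 that passed lay below that of all genes at 3 hours and close to it in the joint test.

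The median log2 fold change of the 8 genes was 0.50 at 3 hours, 0.18 at 3 days, and -0.05 at 14 days, beside 0.02, 0, and 0.02 over all genes. Single libraries moved the calls over all genes too: without control replicate 3 they were 3351 higher and 3496 lower at 3 hours and 1300 and 915 at 3 days, of 15103 genes. Without TL14d replicate 1 they were 2170 higher and 1608 lower at 3 days and 531 and 185 at 14 days, of 15114 genes, and the counts of related lists without these libraries stand beside those totals. Groups that did not overlap were found for 3 of the 8 genes at 3 hours, where 57.3% of all genes did not overlap, and for 4 of the 8 at 3 days, where the share was 45.5%. At 14 days all 8 overlapped with the control group, where 11.1% of all genes did not. Scaling by library size alone moved the median of all genes at 3 hours to -0.47 and the calls over all genes from 3435 higher and 3298 lower to 1889 higher and 5673 lower, since the TMM factors of the TL3h libraries (0.768 to 0.783) lay below those of the other libraries (1.03 to 1.13).

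**Figure D1:**
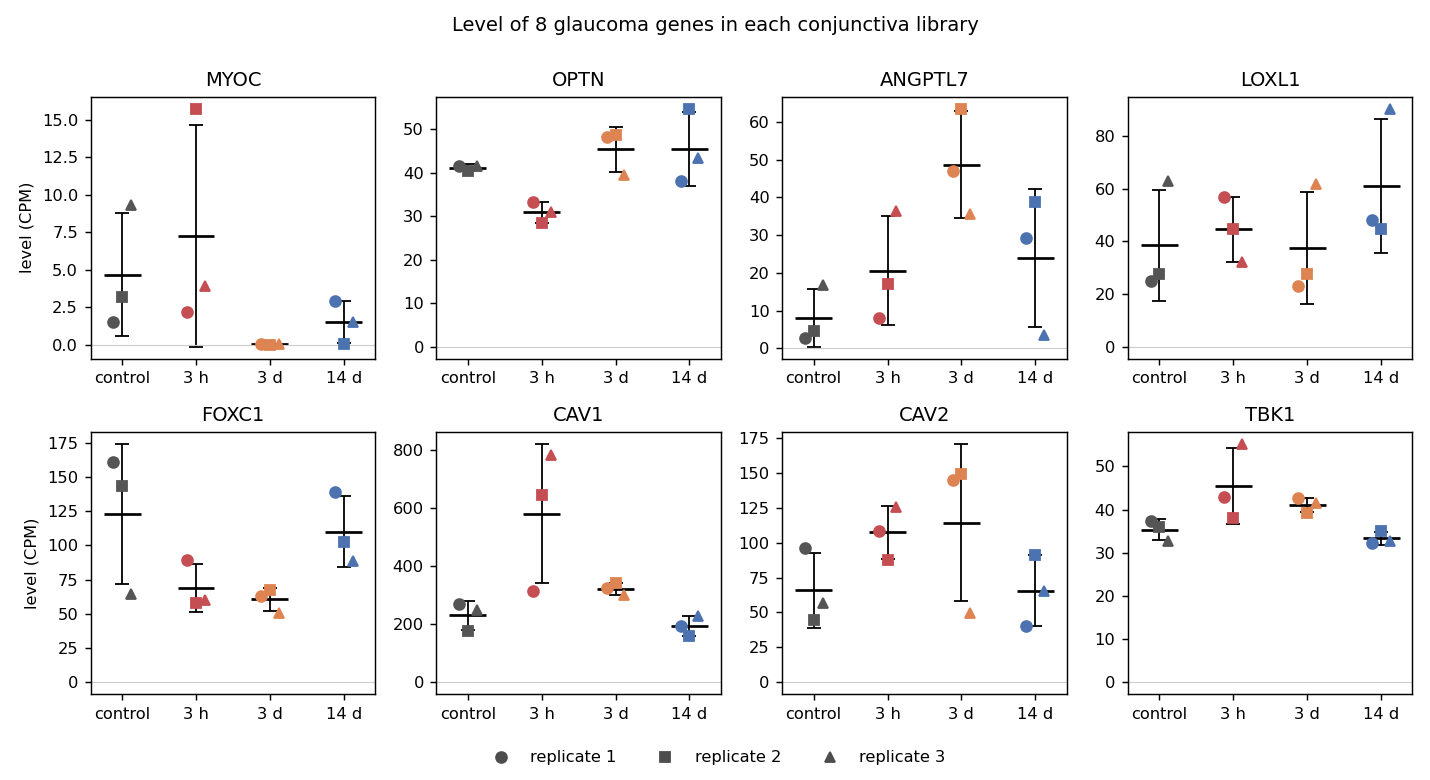
Level of each of the 8 genes in CPM (linear axes that include 0) in the 12 libraries, by group. Symbols are libraries, the wide horizontal line is the group mean, and the error bar is the SD (n = 3). MYOC lay at or near 0 in all 3 libraries at 3 days, and the 3 OPTN libraries at 3 hours lay below the 3 control libraries.

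**Figure D2:**
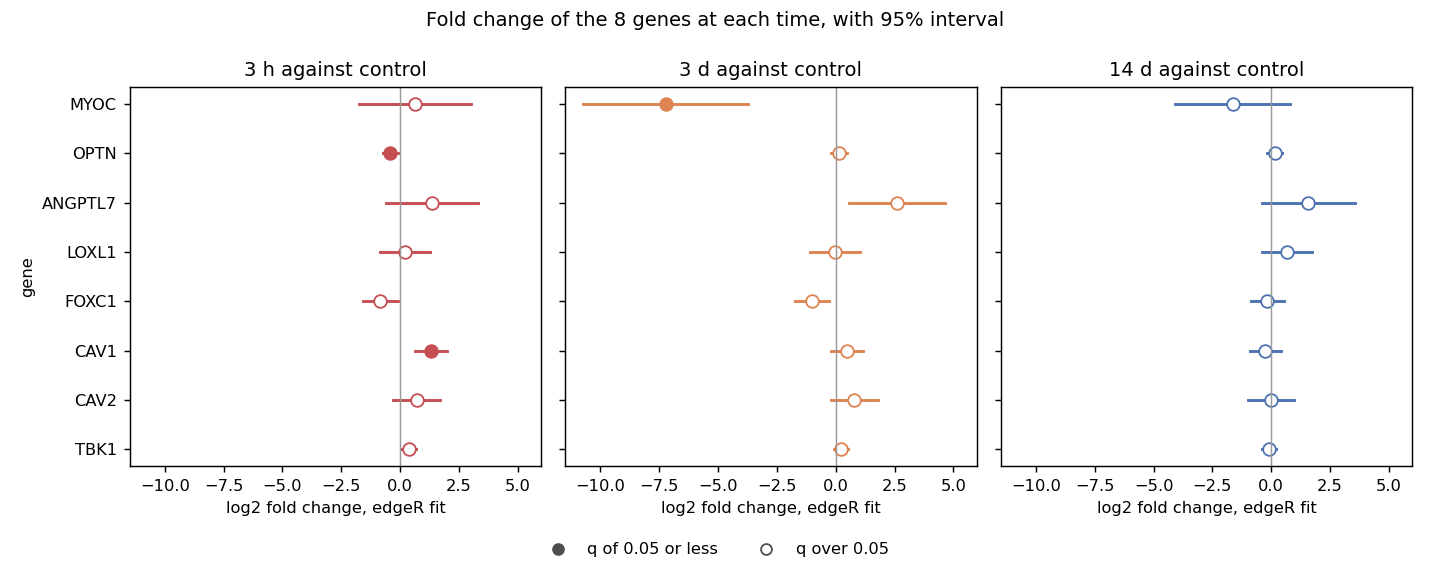
Log2 fold change of each gene against the control group at each of the 3 times, from the edgeR fit. Lines are 95% intervals, and filled points passed a q of 0.05. CAV1 and OPTN were filled at 3 hours, MYOC at 3 days, and none at 14 days. The fitted value of MYOC at 3 days rests on libraries with 2, 0, and 1 counts and depends on the prior count.

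MYOC codes for myocilin, a secreted glycoprotein with an olfactomedin domain, and it fell at 3 days almost to the limit of detection. Its level in control replicates 1, 2, and 3 was 1.52, 3.20, and 9.33 CPM. At 3 hours it was 2.15, 15.8, and 3.91 CPM. These 2 groups overlapped, with 1 high library in each. At 3 days the libraries held 2, 0, and 1 counts, or 0.05, 0, and 0.0284 CPM, and at 14 days 2.89, 0.0815, and 1.53 CPM. All 3 libraries at 3 days thus lay at or under the floor of 3 counts, below every control library and every library at 3 hours, and at 14 days replicate 2 held only 3 counts while the other two were within the control range.

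Set against the floor of 3 counts per library, MYOC at 3 days was at least 55.6-fold lower than the control mean of 4.68 ± 4.11 CPM (SD; n = 3 here and for every mean below). Control replicate 3 carried much of that mean, and without it the bound was 28-fold. The bound takes the control mean as given, without its spread. The fit gave a log2 fold change of -7.23 (95% interval -10.72 to -3.74, q = 0.0178), and the small end of that interval is a smaller fall than the bound. Over 21 alternatives q ranged from 3.21e-06 to 0.0697. The call was lost without control replicate 2 (q = 0.0527), TL3d replicate 1 (q = 0.0631), or TL3d replicate 2 (q = 0.0697). At 3 hours MYOC did not pass (log2 fold change 0.64, 95% interval -1.75 to 3.02, q = 0.665), and without TL3h replicate 2 the value was -0.67. At 14 days it did not pass either (log2 fold change -1.65, interval -4.10 to 0.81, q = 0.625). The intervals at 3 hours and 14 days hold changes in either direction.

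Fibroblast markers summed to 1336, 11770, and 64980 CPM in TL3d replicates 1, 2, and 3, and TL3d replicate 3 thus had 1 count of MYOC at a fibroblast marker level within the control range. Epithelium markers summed to 16160, 14290, and 6089 CPM there, the first pair above all control libraries. The part of these cells in the result was not tested. Over the 12 libraries the correlation of log2 MYOC with the log2 fibroblast sum was 0.65, and after subtraction of the group means it was 0.345. With the epithelium sum it was -0.793 and -0.609, and with the smooth muscle and pericyte sum -0.73 and -0.398. With the pigment cell sum it was -0.319 and -0.718, and with the endothelium sum 0.21 and 0.676. All of these points share the depth and scaling of their library.

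Of 12 tested relatives of MYOC and ANGPTL7, the other olfactomedin and angiopoietin-like genes, 0 were higher and 1 was lower at 3 hours, and likewise 0 and 1 at 3 days. Over all genes 23.2% were higher and 22.2% lower at 3 hours, and 10.6% and 7% at 3 days. OLFM3 fell from 5.21 ± 1.53 to 1.67 ± 0.136 CPM at 3 hours (log2 fold change -1.64, q = 0.0345). OLFM4, an olfactomedin of secretory epithelia and neutrophils, fell from 528 ± 211 to 30.0 ± 14.1 CPM at 3 days (log2 fold change -4.14, q = 0.045), and without control replicate 3 none of the 12 passed at 3 days. The median log2 fold change of the 12 was 0.50 at 3 hours and -0.96 at 3 days, beside 0.02 and 0 over all genes, and without control replicate 3 it was 1.41 and -0.15. With library size alone 2 of them were lower at 3 hours. At 14 days 0 of the 12 passed, and without TL14d replicate 1 there were 2 lower at 3 days and 1 at 14 days.

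ANGPTL7, a secreted angiopoietin-like protein of the trabecular meshwork and the cornea, had its highest levels at 3 days but did not pass the test. Its level was 2.71, 4.70, and 16.8 CPM in control conjunctiva, then 8.07, 17.2, and 36.4 CPM at 3 hours and 47.0, 63.5, and 35.6 CPM at 3 days. At 14 days it was 29.2, 38.8, and 3.51 CPM. The libraries at 3 days all lay above the control libraries, those at 3 hours overlapped with them, and at 14 days replicate 3 lay within the control range while the other two lay above it.

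The mean of ANGPTL7 at 3 days, 48.7 ± 14.1 CPM, was 6.05 times the control mean of 8.05 ± 7.60 CPM (log2 fold change 2.6, interval 0.55 to 4.64, unadjusted p = 0.0177, q = 0.0738). It passed in 4 of 21 alternatives: with DESeq2 (q = 0.0121), without control replicate 3 (log2 fold change 3.70, q = 0.0415), without TL14d replicate 3 (q = 0.046), and with both control replicate 3 and TL14d replicate 1 left out (q = 0.0357). The log2 fold change was 1.35 (interval -0.62 to 3.32, q = 0.243) at 3 hours and 1.57 (interval -0.41 to 3.55, q = 0.571) at 14 days. In control libraries ANGPTL7 and MYOC had the same order, lowest in replicate 1 and highest in replicate 3, and at 3 days ANGPTL7 was at its highest where MYOC was at the floor. The library kit kept the strand, but whether the counting used it is not given in the sources used here, so reads of ANGPTL7 and of MTOR, the kinase gene that overlaps it, may not have been told apart. MTOR went from 97.8 ± 4.02 CPM in control conjunctiva to 119 ± 22.0 CPM at 3 days (log2 fold change 0.29, q = 0.23), and at 3 hours it fell to 64.5 ± 9.73 CPM (q = 0.0127).

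LOXL1, a lysyl oxidase that crosslinks elastin and whose gene is tied to exfoliation glaucoma, showed no difference that passed at any time. Its levels were 25.1, 27.8, and 62.9 CPM in control conjunctiva, compared with 57.0, 44.8, and 32.1 CPM at 3 hours. They were 22.9, 27.6, and 61.9 CPM at 3 days and 48.0, 44.8, and 90.5 CPM at 14 days. In the control group, at 3 days, and at 14 days replicate 3 was the highest library by far, and all groups overlapped.

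The log2 fold change of LOXL1 was 0.21 (interval -0.85 to 1.27, q = 0.752) at 3 hours, -0.04 (interval -1.10 to 1.02, q = 0.96) at 3 days, and 0.66 (interval -0.40 to 1.73, q = 0.648) at 14 days. Its sign changed at 3 hours with library size alone (-0.26) and without control replicate 1 (-0.03) or TL3h replicate 1 (-0.05), and at 3 days without control replicate 3 (0.49), TL3d replicate 1 (0.22), or TL3d replicate 2 (0.14). LOXL1 ran within groups with markers of several cell types. The fibroblast markers summed to 76460 CPM in control replicate 3, to 64980 CPM in TL3d replicate 3, and to 57230 CPM in TL14d replicate 3, each the highest of its group. Over 12 libraries the correlation of log2 LOXL1 with the log2 fibroblast sum was 0.613, and after subtraction of the group means it was 0.806. With the endothelium sum it was 0.317 and 0.86, with the adipocyte sum 0.487 and 0.761, and with the epithelium sum -0.395 and -0.754. The part of these cells in the levels of LOXL1 was not tested. At 3 hours, where the fibroblast sums were higher than in any other library, LOXL1 stayed within the range of the control group.

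**Figure D3:**
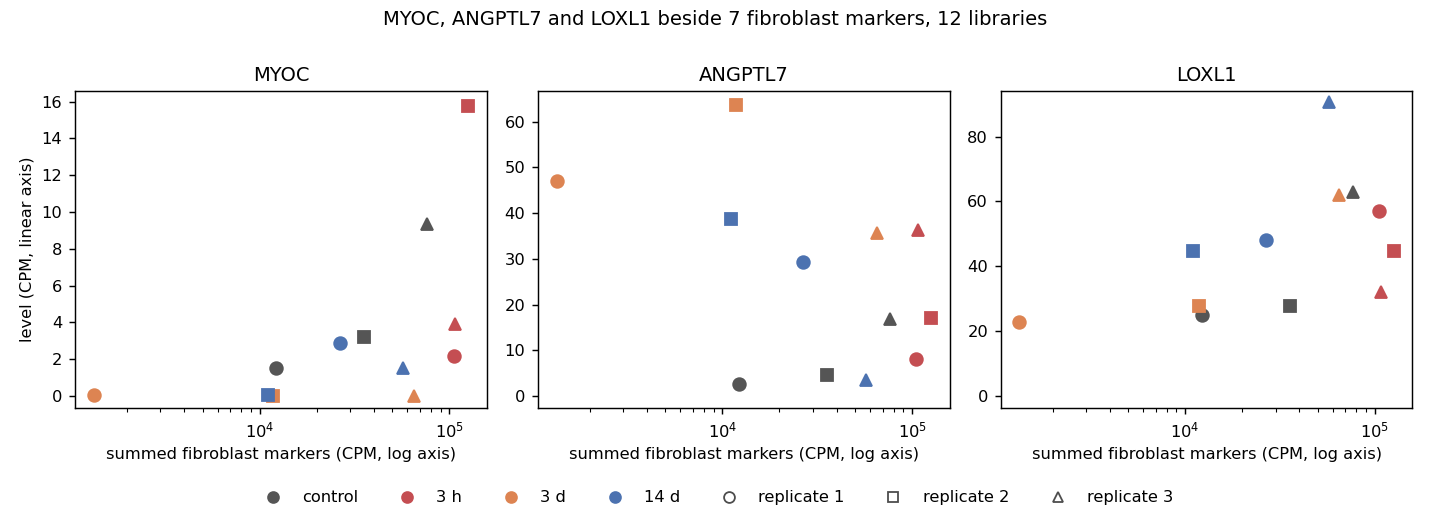
Level in CPM (linear axis) of MYOC, ANGPTL7, and LOXL1 against the summed CPM of 7 fibroblast markers (log axis), 12 libraries, color by group and symbol by replicate. TL3d replicate 3 had 64980 CPM of fibroblast markers with 1 count of MYOC, and ANGPTL7 was at 47.0 CPM in the library with the fewest, at 1336 CPM. LOXL1 was highest where these markers were highest within the control, TL3d, and TL14d groups.

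A list of elastic fiber and lysyl oxidase genes other than LOXL1, which also held CLU, had 15 tested genes. Of these, 1 was higher and 0 lower at 3 hours (23.2% and 22.2% of all genes), and 2 were higher and 0 lower at 3 days (10.6% and 7%). CLU, which codes for the chaperone clusterin found in exfoliation material, rose from 661 ± 127 to 1996 ± 624 CPM at 3 hours (log2 fold change 1.6, q = 0.0199) and to 2185 ± 1288 CPM at 3 days (1.73, q = 0.0364). LOXL4, another lysyl oxidase, rose from 14.1 ± 5.26 to 94.9 ± 19.4 CPM at 3 days (log2 fold change 2.75, q = 0.0448). With library size alone CLU at 3 hours did not pass (1.09, q = 0.0839), and without control replicate 3 none of the 15 passed at 3 days. The median log2 fold change of the 15 was 1 at 3 hours, 0.43 at 3 days, and 0.76 at 14 days, when 0 of the 15 passed. Without control replicate 3 these medians were 1.84, 1.27, and 1.57. Without TL14d replicate 1, 2 of the 15 were higher at 3 hours and 1 at 14 days, where the median was 1.19.

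OPTN, the autophagy receptor optineurin, fell slightly at 3 hours, and its later levels lay on both sides of those in control conjunctiva. In control replicates 1, 2, and 3 its level was 41.6, 40.4, and 41.6 CPM, and at 3 hours it was 33.3, 28.5, and 30.9 CPM. At 3 days it was 48.1, 48.7, and 39.4 CPM, and at 14 days 38.2, 54.8, and 43.5 CPM. The control libraries agreed closely with each other, and every library at 3 hours lay below them, whereas the later groups overlapped with them.

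The mean of OPTN at 3 hours, 30.9 ± 2.37 CPM, was 0.75 times the control mean of 41.2 ± 0.721 CPM (log2 fold change -0.41, SE 0.146, interval -0.74 to -0.09, q = 0.0407). The direction held in 21 of 21 alternatives, with values from -0.91 to -0.41, and the call in 13 of them. With single libraries left out it was lost without control replicate 1 (q = 0.0952), control replicate 2 (0.0823), TL3h replicate 2 (0.0808), TL3h replicate 3 (0.0618), TL3d replicate 1 (0.0542), TL3d replicate 2 (0.0555), or TL14d replicate 3 (0.0546). It was also lost with the replicate number as a block (-0.41, q = 0.0552). At 3 days the log2 fold change was 0.14 (interval -0.18 to 0.47, q = 0.514), and at 14 days it was 0.14 (interval -0.18 to 0.47, q = 0.759). Over the 12 libraries log2 OPTN ran with the epithelium sum (0.757, and 0.7 after subtraction of the group means) and against the fibroblast sum (-0.741 and -0.549) and the endothelium sum (-0.67 and -0.433). With the pigment cell sum these values were 0.311 and 0.756. The part of these cells in the levels of OPTN was not tested.

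TBK1, the kinase that phosphorylates OPTN, was slightly above the control level at 3 hours without passing. Its levels were 37.4, 36.0, and 32.7 CPM in control conjunctiva, compared with 42.8, 38.1, and 55.2 CPM at 3 hours. They were 42.6, 39.3, and 41.4 CPM at 3 days and 32.3, 35.1, and 32.7 CPM at 14 days. The libraries at 3 hours and 3 days lay above all control libraries, though TL3h replicate 2 only just, and those at 14 days lay within or next to the control range.

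The log2 fold change of TBK1 was 0.36 (interval 0.05 to 0.67, unadjusted p = 0.0259, q = 0.056) at 3 hours. It was 0.22 (interval -0.09 to 0.53, q = 0.278) at 3 days and -0.08 (interval -0.39 to 0.22, q = 0.861) at 14 days. The value at 3 hours passed in 1 of 21 alternatives, without TL3h replicate 2 (0.42, q = 0.0386), and with library size alone it was -0.14, still above the median of all genes of -0.47 under that scaling. OPTN and TBK1 thus lay on opposite sides of the control level at 3 hours with TMM factors, but with library size alone both were below it.

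Among 26 tested partners of OPTN and TBK1, genes of selective autophagy and of innate immune signaling, 7 were higher and 9 lower at 3 hours. Of all genes 23.2% were higher and 22.2% lower at that time. TMEM173, which codes for the innate immune adaptor STING, rose from 3.77 ± 1.004 to 23.6 ± 12.4 CPM (log2 fold change 2.65, q = 0.000312). SQSTM1, the autophagy receptor p62, rose from 350 ± 30.2 to 763 ± 146 CPM (1.13, q = 0.00219), and ATG16L1, an autophagosome factor, rose from 31.1 ± 1.79 to 51.6 ± 6.08 CPM (0.73, q = 0.00202). In the other direction went NBR1, a further autophagy receptor, which fell from 310 ± 61.5 to 114 ± 5.11 CPM (-1.45, q = 0.000192), MAVS, an adaptor of antiviral signaling, which fell from 97.5 ± 15.7 to 30.6 ± 4.999 CPM (-1.67, q = 0.000194), and PINK1, the kinase that starts mitophagy, which fell from 169 ± 52.2 to 35.3 ± 14.1 CPM (-2.26, q = 0.0042). Receptors of the same process thus moved in both directions, SQSTM1 up and NBR1 and OPTN down. The median of the 26 was 0.09 beside 0.02 over all genes and -0.03 without control replicate 3, and with library size alone 2 were higher and 12 lower, with ATG16L1 no longer past the threshold (0.23, q = 0.24).

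At 3 days 1 of the 26 partners was higher and 5 were lower (10.6% and 7% of all genes). Without control replicate 3 these counts were 1 and 3, and with library size alone 1 and 2. TMEM173 was still higher, at 11.4 ± 1.54 CPM (log2 fold change 1.59, q = 0.018). PARK2, the ubiquitin ligase parkin that works with PINK1, fell from 2.59 ± 0.802 to 0.601 ± 0.203 CPM (-2.10, q = 0.0147). GABARAPL1, a ubiquitin-like protein of autophagosomes, fell from 278 ± 10.04 to 96.1 ± 2.53 CPM (-1.53, q = 0.0169), and GABARAPL2, of the same family, fell from 128 ± 5.03 to 97.9 ± 5.04 CPM (-0.39, q = 0.0473, and 0.052 with library size alone). At 14 days 0 of the 26 passed, and without TL14d replicate 1 there were 2 lower. Myeloid markers, whose cells use STING, were higher at 3 hours and 3 days by the sums given above, with 4 of 6 tested markers past the threshold at each time (45.4% and 17.6% of all genes passed), and their part in the TMEM173 values was not tested.

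FOXC1, a forkhead transcription factor of neural crest and anterior segment development, lay near the threshold at 3 hours and 3 days and passed the joint test over the 3 times. Its level was 161, 143, and 64.7 CPM in control conjunctiva, compared with 89.1, 57.9, and 59.7 CPM at 3 hours. At 3 days it was 63.3, 67.1, and 50.7 CPM, and at 14 days 139, 103, and 88.4 CPM. Control replicate 3 stood at less than the level of the other two control libraries and within the range at 3 hours and 3 days, so those groups overlapped with the control group, whereas without it they would not.

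The log2 fold change of FOXC1 was -0.84 (interval -1.56 to -0.11, q = 0.058) at 3 hours and -1.03 (interval -1.75 to -0.30, q = 0.0541) at 3 days. At 14 days it was -0.16 (interval -0.88 to 0.56, q = 0.882). Without control replicate 3 the values were -1.20 (q = 0.00386) at 3 hours and -1.35 (q = 0.0204) at 3 days, both past the threshold. FOXC1 passed in 7 of 21 alternatives at 3 hours and in 5 of 21 at 3 days, and was negative in all of them. With the replicate number as a block it passed at 3 hours (-0.78, q = 0.0211) and at 3 days (-0.95, q = 0.0281). With single libraries left out, the call of the joint test was kept only without control replicate 3 or TL3h replicate 1, and with each of the other libraries left out q was between 0.0532 and 0.108. Over 12 libraries log2 FOXC1 ran against the myeloid marker sum, with a correlation of -0.856, and of -0.675 after subtraction of the group means. Against the endothelium sum these values were -0.779 and -0.7, and against the corneal sum -0.646 and -0.921. The part of these cells in the levels of FOXC1 was not tested.

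Of 8 other transcription factors of the anterior segment that could be tested, 0 were higher and 6 were lower at 3 hours. The shares of all genes were 23.2% higher and 22.2% lower then, and 10.6% and 7% at 3 days. TFAP2A, an activator of surface ectoderm and neural crest genes, fell from 45.1 ± 10.4 to 19.3 ± 2.39 CPM (log2 fold change -1.22, q = 0.000496). TFAP2B, of the same family, fell from 125 ± 49.4 to 24.7 ± 4.42 CPM (-2.34, q = 0.0013), and RARB, a retinoic acid receptor, fell from 37.5 ± 10.8 to 8.82 ± 3.65 CPM (-2.09, q = 0.00302). At 3 days 0 were higher and 2 lower, TFAP2B at 46.3 ± 10.5 CPM (-1.43, q = 0.0371) and RARB at 14.4 ± 2.93 CPM (-1.38, q = 0.0465), and without control replicate 3 only 1 was lower, and without TL14d replicate 1 there were 3. The median log2 fold change of the 8 was -1.51 at 3 hours, -0.92 at 3 days, and -0.03 at 14 days, when none passed, and with library size alone 7 were lower at 3 hours. FOXC1 lay between the median of this list and that of all genes at 3 hours.

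CAV1, the scaffold protein of caveolae, rose at 3 hours and was the only one of the 8 that passed there in every alternative. Its level was 270, 174, and 247 CPM in control conjunctiva, compared with 315, 643, and 783 CPM at 3 hours. At 3 days it was 325, 340, and 299.7 CPM, and at 14 days 194, 159, and 228 CPM. Every library at 3 hours and at 3 days lay above the control libraries, TL3h replicate 1 at about the level of the libraries at 3 days, and those at 14 days overlapped with the control group. In FPKM, which carries no TMM factor, TL3h replicate 1 lay at 77.3, within the control range of 60.8 to 93.4.

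The mean of CAV1 at 3 hours, 581 ± 240 CPM, was 2.52 times the control mean of 231 ± 49.8 CPM (log2 fold change 1.33, SE 0.305, interval 0.65 to 2.01, q = 0.00546). Over 21 alternatives the value ranged from 0.84 to 1.58 and q from 0.000357 to 0.0403. At 3 days the log2 fold change was 0.48 (interval -0.19 to 1.15, q = 0.271), and at 14 days it was -0.25 (interval -0.92 to 0.42, q = 0.796). CAV1 is abundant in endothelial cells, and the sum of the 8 vascular endothelium markers was 937, 1282, and 655 CPM in TL3h replicates 1, 2, and 3. TL3h replicate 3 thus had the lowest endothelial sum of its group and the highest CAV1. Over 12 libraries the correlation of the log2 values was 0.736, and after subtraction of the group means it was 0.034. Of these markers 2 of 8 passed the test at 3 hours, where 45.4% of all genes passed, and their part in the result was not tested.

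CAV1 had 3 annotated transcripts, and its rise at 3 hours was mostly in one of them. XM_008258166.2, whose 5′ end lies at 28799295, made up 21.4, 26.2, and 37.5% of the counts given to CAV1 transcripts in control replicates 1, 2, and 3. At 3 hours it made up 41.0, 59.6, and 55.3%. At 3 days its share was 19.2, 19.5, and 40.7%, and at 14 days 29.0, 22.0, and 31.1%. All libraries at 3 hours thus lay above all control libraries, and TL3d replicate 3 stood apart from the other two of its group.

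This transcript rose from a control level of 69.9 ± 25.4 CPM to 315 ± 160 CPM at 3 hours (log2 fold change 2.17, SE 0.481, q = 0.00771 over 26082 transcripts, of which 28.3% passed). NM_001111072.1, whose 5′ end lies upstream at 28800840, went from 173 ± 47.8 to 254 ± 76.6 CPM without passing (0.55, SE 0.275, q = 0.168), and XM_008258165.2 from 4.20 ± 0.395 to 11.9 ± 2.88 CPM (1.501, q = 0.0545). The difference between these transcripts in fold change was not tested. XM_008258166.2 fell again between 3 hours and 3 days (-1.83, q = 0.0215), where 21.4% of all transcripts passed, and at 14 days it differed from the control group by -0.27 (q = 0.959). The transcripts overlap over most of their span, so their counts are estimates: the transcript counts of CAV1 summed to 5.79 to 12% more than the gene count in the same library, and 83.3% of the gene counts of CAV1 were fractions.

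**Figure D4:**
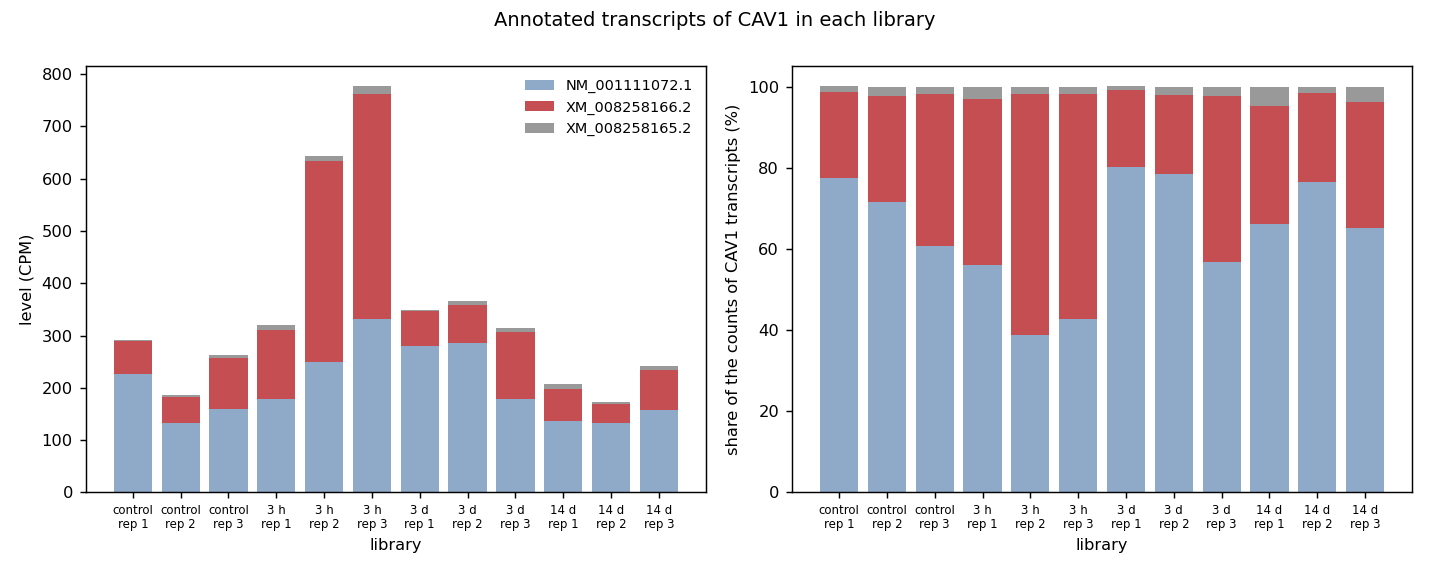
CPM (left) and share in % (right) of the 3 annotated CAV1 transcripts in each of the 12 libraries, stacked from 0. XM_008258166.2 made up 41.0 to 59.6% at 3 hours and 21.4 to 37.5% in the control group, and TL3d replicate 3 had 40.7%.

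CAV2, which forms caveolae together with CAV1, did not pass at any time. Its levels were 96.4, 44.6, and 56.7 CPM in control conjunctiva, compared with 108, 87.8, and 126 CPM at 3 hours. They were 145, 149, and 49.3 CPM at 3 days and 40.1, 91.1, and 65.5 CPM at 14 days. TL3d replicate 3 lay far below the other two of its group, and every group overlapped with the control group.

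The log2 fold change of CAV2 was 0.71 (interval -0.29 to 1.70, q = 0.227) at 3 hours, 0.80 (interval -0.20 to 1.79, q = 0.222) at 3 days, and -0.01 (interval -1 to 0.98, q = 0.997) at 14 days. The level of CAV1 in FPKM was 2.87, 4, and 4.47 times that of CAV2 in the control libraries and 2.98, 7.50, and 6.36 times that of CAV2 at 3 hours. At 3 days the ratio was 2.30, 2.33, and 6.22, and at 14 days 4.95, 1.79, and 3.56. These ratios overlapped between all groups. The epithelium sums at 3 days, 16160, 14290, and 6089 CPM, were low in the same library as CAV2. The correlation of log2 CAV2 with the epithelium sum over 12 libraries was 0.448, and 0.829 after subtraction of the group means, and with the fibroblast sum it was -0.369 and -0.714. The part of these cells in the levels of CAV2 was not tested. Over 12 libraries the correlation of log2 CAV1 with log2 CAV2 was 0.532, and after subtraction of the group means it was 0.187.

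Of the 7 tested genes of the caveolar coat and neck, 1 was higher and 1 lower at 3 hours (23.2% and 22.2% of all genes). None passed at 3 days (17.6% of all genes) or 14 days (0%). PTRF, the coat protein cavin-1 that caveolae need to form, rose from 153 ± 46.8 to 297 ± 61.1 CPM (log2 fold change 0.95, q = 0.0301), and PACSIN3, which shapes the membrane at the neck of caveolae, fell from 19.6 ± 6.05 to 7.57 ± 1.27 CPM (-1.37, q = 0.00298). With library size alone PTRF did not pass (0.47, q = 0.205), 0 were higher, and 3 were lower, and without control replicate 3 the counts were 1 and 2. The median of the 7 was -0.28, below that of all genes, but values lay on both sides. The rest, named after their values were seen, did not pass. PRKCDBP (0.86) and SDPR (0.09) were positive and PACSIN2 (-0.28) was negative. CAV3 (-2.40) and MURC (-2.97) were at only 1.05 ± 1.31 and 1.47 ± 1.47 CPM in control conjunctiva.

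Among 34 tested genes with other links to glaucoma, 3 were higher and 6 lower at 3 hours. All genes together had 23.2% higher and 22.2% lower at 3 hours, and 10.6% and 7% at 3 days. THBS1, the matrix protein thrombospondin-1, rose from 23.2 ± 30.2 to 3686 ± 623 CPM (log2 fold change 7.31, q = 0.00941). WDR36, a ribosome biogenesis factor, rose from 29.8 ± 1.92 to 69.2 ± 10.7 CPM (1.22, q = 0.000217), and FERMT2, an integrin adaptor, rose from 40.5 ± 33.2 to 227 ± 37.9 CPM (2.49, q = 0.0104). NTF4, a neurotrophin, fell from 5.71 ± 1.53 to 0.893 ± 0.605 CPM (-2.67, q = 0.00119). TXNRD2, the mitochondrial thioredoxin reductase, fell from 8.15 ± 0.458 to 4.14 ± 0.543 CPM (-0.98, q = 0.00501), and PAX6, the eye field transcription factor, fell from 291 ± 91.0 to 89.7 ± 31.5 CPM (-1.70, q = 0.00693). At 3 days 0 were higher and 1 was lower, ARHGEF12, a guanine nucleotide exchange factor, which fell from 372 ± 46.3 to 203 ± 21.3 CPM (-0.88, q = 0.0267). THBS1, named at this time after its values were seen, lay just over the threshold at 1097 ± 678 CPM (5.56, q = 0.05), and with library size alone 1 of the 34 was higher at 3 days. The median log2 fold change of the 34 was 0.03, 0.11, and 0 at the 3 times, and with library size alone 3 were higher and 12 lower at 3 hours. Without control replicate 3 these medians were -0.01, 0.24, and 0.33, and 1 was higher and 1 lower at 3 days. At 14 days 0 of the 34 passed. Without TL14d replicate 1, 3 were higher and 2 lower at 3 days, and 2 were higher at 14 days.

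Trabecular meshwork is the tissue that the study's methods describe as cut. Of 7 tested markers of it, 2 were higher and 0 lower at 3 hours (23.2% and 22.2% of all genes), and 2 were higher and 1 lower at 3 days (10.6% and 7%). PDPN, a membrane glycoprotein that lymphatic endothelium and fibroblasts also make, rose from 48.3 ± 10.6 to 398 ± 155 CPM at 3 hours (log2 fold change 3.04, q = 0.00215) and was at 226 ± 60.9 CPM at 3 days (2.23, q = 0.0279). CHI3L1, a chitinase-like protein that inflammatory cells also make, rose from 2.76 ± 2.87 to 167 ± 94.9 CPM at 3 hours (5.92, q = 0.0146). EDN3, an endothelin, rose from 0.316 ± 0.221 to 11.1 ± 7.84 CPM at 3 days (5.12, q = 0.0362), and RARRES1, a retinoid-responsive gene, fell from 3318 ± 1052 to 1067 ± 45.3 CPM (-1.64, q = 0.0389). Without control replicate 3 the counts were 3 and 1 at 3 hours and 0 and 1 at 3 days, and with library size alone they were 2 and 1 at 3 hours. The median was 1.25 at 3 hours and 0.56 at 3 days (0.02 and 0 over all genes), and 2.02 and 2.12 without control replicate 3. At 14 days none passed, and without TL14d replicate 1 there were 3 higher at 3 days and 2 at 14 days. In unoperated conjunctiva RARRES1, MGP, and AQP1 were already at 3318, 214, and 123 CPM, while CHI3L1, PPP1R1B, and EDN3 were at 2.76, 3.58, and 0.316 CPM. MGP, AQP1, and PPP1R1B are named here after their values were seen. The list thus does not mark meshwork alone in this tissue. MYOC, also a transcript of trabecular meshwork, did not pass at 3 hours and was lower at 3 days.

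Glucocorticoids induce MYOC and ANGPTL7 in trabecular meshwork, and by the study's methods a steroid was injected at the end of the operation. Of 7 tested genes that glucocorticoids induce in many tissues, 2 were higher and 0 lower at 3 hours (23.2% and 22.2% of all genes). At 3 days 0 were higher and 2 lower (10.6% and 7% of all genes). DUSP1, a phosphatase of stress signaling, rose from 156 ± 17.0 to 1188 ± 98.3 CPM (log2 fold change 2.93, q = 3.89e-05), and SGK1, a kinase, rose from 48.7 ± 29.9 to 457 ± 107 CPM (3.23, q = 0.000612). Injury and serum also induce both. The median log2 fold change of the 7 was 0.6 at 3 hours and -1.79 at 3 days, beside 0.02 and 0 over all genes, and without control replicate 3 it was 2.51 and -0.08. At 3 days ZBTB16, a zinc finger repressor, was at 2.84 ± 1.31 CPM, where the control group was at 101 ± 151 CPM (-5.15, q = 0.0268), and TSC22D3, the leucine zipper protein GILZ, was at 81.5 ± 12.1 CPM, where the control group was at 282 ± 132 CPM (-1.79, q = 0.0449). These controls had wide SDs, and control replicate 3 decided the counts: without it 5 were higher and 0 lower at 3 hours, and 2 were higher and 0 lower at 3 days. Without TL14d replicate 1, 3 were lower at 3 days. At 14 days 0 of the 7 passed.

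**Figure D5:**
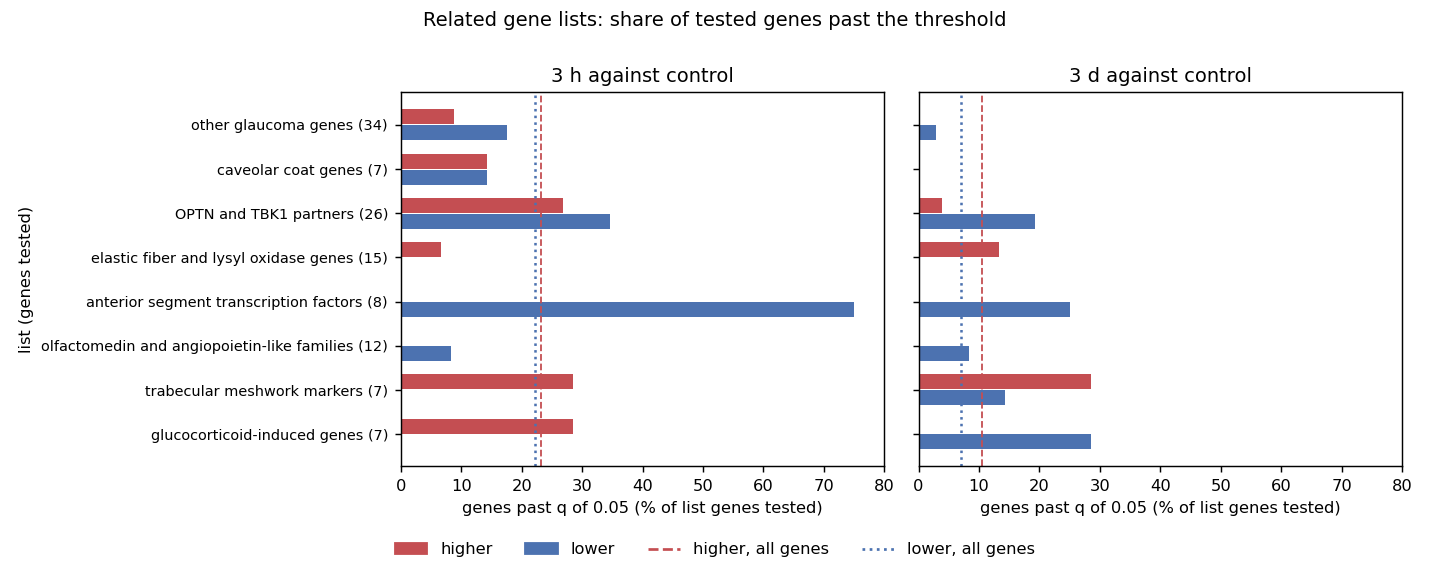
Share of the tested genes of each related list, in % with the number of genes tested in brackets, that was higher (red) or lower (blue) than in the control group at a q of 0.05, at 3 hours and 3 days. Vertical lines are the shares of all 14835 genes, 23.2% higher and 22.2% lower at 3 hours and 10.6% higher and 7% lower at 3 days. At 3 hours 6 of 8 anterior segment transcription factors were lower, and 1 of 15 genes of the elastic fiber and lysyl oxidase list was higher, the chaperone gene CLU.

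The times were also compared with each other. Between 3 hours and 3 days 3 of the 8 genes passed (37.3% of all genes): MYOC and CAV1 fell and OPTN rose, though CAV1 passed in only 3 of 21 alternatives. Between 3 days and 14 days none of the 8 passed (2.24% of all genes, and 3350 genes at an unadjusted p under 0.05, among them MYOC, FOXC1, and CAV1), and MYOC passed with DESeq2 (q = 0.0011) and without TL14d replicate 2 (q = 0.044), the library with 3 counts. Between 3 hours and 14 days OPTN was higher and CAV1 and TBK1 were lower at the later time (45.3% of all genes passed).

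The genes whose log2 levels ran most like those of each of the 8 over the 12 libraries were taken from 11757 genes, and the correlations are a description over libraries that share 4 groups, a depth, and a scaling each. For MYOC they were CNTNAP2 (0.966), RAB2B (0.966), and EFCAB2 (0.956). For OPTN they were SLC13A5 (0.979), TARBP1 (0.959), and PRKCA (0.958). The weakest best matches were those of ANGPTL7, MALSU1 (0.809), SRP14 (0.797), and CD1B (0.794). LOXL1 ran most like DOC2B (0.913), CMTM3 (0.89), and ANGPTL2 (0.88), and FOXC1 most like MKRN1 (0.931), AKTIP (0.928), and ACIN1 (0.926). CAV1 ran most like KHSRP (0.922), CNOT9 (0.921), and TMED5 (0.917), CAV2 most like SUDS3 (0.918), COQ2 (0.912), and SOWAHB (0.91), and TBK1 most like UBE2R2 (0.934), FAM175B (0.917), and PSMA3 (0.904). None of these was another of the 8. Among the 8 themselves the highest correlation was that of CAV1 with TBK1 (0.752, and 0.238 after subtraction of the group means), and the lowest was that of MYOC with OPTN (-0.714, and -0.756 after subtraction). After subtraction the highest was that of OPTN with CAV2 (0.799, and 0.0834 before it).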

How the data were processed

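Paired-end reads of 150 bp were mapped by the authors to OryCun2.0 with STAR (2.6.0c in the submitters' processing notes) and summed per gene and transcript with GeneData Profiler Genome. The authors deposited estimated counts, not divided by depth, of which 23.4% were fractions in the gene table, and FPKM, which the authors divided by transcript length and depth. How reads with several placements were shared is not given in the sources used here.

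The 8 genes and the related lists were chosen with earlier results of these data known. Estimated counts were rounded, as the planned test was for counts. filterByExpr (minimum count 10, minimum total 15) kept 14835 of 20566 genes and 26082 of 38710 transcripts. A single quasi-likelihood fit held all 12 libraries and no covariate (edgeR 4.0.16, R 4.3.3, TMM, prior count 0.125). Levels are CPM with TMM library sizes. FPKM served to compare levels of different genes and, for CAV1, to give the levels without the TMM factors. From each list at most 3 genes per direction and time were named, those with the lowest q at a mean of at least 1 CPM. Genes named after their values were seen are marked as such in the text. For each of the 8, the 3 genes with the highest correlation of log2 CPM (prior count 2) were named, among genes with a symbol other than a locus number. The alternatives were DESeq2 1.42.0, limma 3.58.1 (trend), RLE factors, library size alone, no filter, counts not rounded, the 6 libraries compared only, a replicate block, and each library left out. Leaving out control replicate 3 and TL14d replicate 1 together, every alternative for the comparisons between times and the joint test, and leaving single libraries out of the bound for MYOC, were chosen after seeing the data. An exact permutation test of 3 libraries against 3 cannot go below 0.1 and was not used. Levels of 9 lists of cell markers are given, and 1 further list is not reported here.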

Additional observations from a re-analysis of the deposited data

Results flagged for a closer look

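In 6 cases the effect of the operation on one of the 8 genes differed between times by the test of the difference itself. MYOC was lower at 3 days than at 3 hours, with a fitted log2 fold change of -7.87 (95% interval -11.41 to -4.32, q = 0.00362) that depends on the prior count. Against the floor of 3 counts per library it was at least 86.4-fold lower than the mean at 3 hours, taken as given without its spread. TL3h replicate 2 carried much of that, and without it the bound was 36-fold. OPTN was higher at 3 days than at 3 hours (log2 fold change 0.56, 0.555 before rounding, SE 0.147, q = 0.014), and this call was lost without TL3d replicate 2 (q = 0.0562). OPTN was also higher at 14 days than at 3 hours (0.557, SE 0.147, q = 0.0115). CAV1 was lower at 3 days than at 3 hours (-0.85, SE 0.302, q = 0.0485), a call that held in 3 of 21 alternatives and, with single libraries left out, only without TL3h replicate 1, with q up to 0.215 without TL3h replicate 3 (-0.54) and 0.341 with library size alone (-0.37). CAV1 was lower at 14 days than at 3 hours (-1.58, SE 0.307, q = 0.00233), in 21 of 21 alternatives. TBK1 was lower at 14 days than at 3 hours (-0.44, SE 0.138, q = 0.0248), in 14 of 21 alternatives. The call was lost without TL3h replicate 1 (q = 0.0503), TL3h replicate 3 (-0.24, q = 0.14), TL14d replicate 1 (0.0604), or TL14d replicate 3 (0.0695), with only the 6 libraries compared (-0.36, q = 0.163), and with both control replicate 3 and TL14d replicate 1 left out (-0.38, q = 0.0822). With library size alone the value was 0.04 (q = 0.845).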

How the results depend on the processing

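Of the log2 fold changes against the control group and the 6 that passed between times, under 21 alternatives, 560 kept their sign and their side of the threshold, 36 lost and 17 gained a call, and 17 changed sign. At 3 days, 1 of the 8 genes had passed, and 2 did with the replicate block and 3 with DESeq2 or with control replicate 3 and TL14d replicate 1 both left out. Between 3 and 14 days, where 0 had passed, DESeq2 called 1. With single libraries left out, 1 to 3 passed at 3 hours, 0 to 3 at 3 days, 0 at 14 days, 1 to 3 between 3 hours and 3 days, 0 to 1 between 3 and 14 days, and 2 to 4 in the joint test. Signs changed for LOXL1 (-0.26) and TBK1 (-0.14) at 3 hours and for TBK1 between 3 hours and 14 days (0.0404) with library size alone, for CAV2 at 14 days with the 6 libraries only (0.000146), the replicate block (0.0225), or both libraries left out (0.135), and for LOXL1 at 3 days with both left out (0.487). With single libraries left out, values ranged from -0.0489 to 0.702 (LOXL1, 3 hours), -0.67 to 1.58 (MYOC, 3 hours), -0.61 to 0.49 (LOXL1, 3 days), -0.481 to 0.0801 (FOXC1, 14 days), -0.32 to 0.37 (CAV2, 14 days), and -0.013 to 0.253 (OPTN, 14 days). The cause was not tested.

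The replicate numbers were not taken as pairs: deviations of same-numbered libraries correlated between -0.171 and 0.502, over 0.1 in 8 of 18 pairs, and 9 of 12 libraries correlated best with their own number. The replicate block lost OPTN at 3 hours (q = 0.0552) and CAV1 between 3 hours and 3 days (q = 0.0683) and gained FOXC1 at 3 hours (q = 0.0211), at 3 days (q = 0.0281), and between 3 hours and 14 days (q = 0.0385). MYOC at 3 days rests on 3 counts in all, which limits its fold to a bound.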
